A study of Mus musculus with 20 samples.

Results

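The 10 genes described here mark the subfields of the hippocampus, and were followed through bulk hippocampal RNA-Seq of 20 aged mice. Prox1, C1ql2, Dsp and Tdo2 mark the granule cells of the dentate gyrus, Wfs1, Fibcd1 and Mpped1 mark CA1, Amigo2 and Rgs14 mark CA2, and Bok marks CA3. They are 10 of the 33119 genes in the deposited count table, were chosen by name with earlier results of these data known, and all 10 were among the 21724 genes that passed the filter on low counts. The question was whether the 4 groups of mice differed in how much of each subfield the dissected hippocampi held.

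The mice were homozygous for human APOE3 (hAPOE3) or human APOE4 (hAPOE4) put in place of the mouse Apoe gene, on a C57BL/6 background. No group carried the mouse Apoe. Each of the 4 groups (hAPOE3 males, hAPOE4 males, hAPOE3 females, hAPOE4 females) held 5 mice aged 16 months, and each library came from 1 mouse. The mice were perfused with saline and the hippocampus was separated from the cortex by hand, so the library holds RNA of every cell in the piece of tissue taken.

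The hippocampal subfields form a chain. Granule cells of the dentate gyrus receive input from the entorhinal cortex and send mossy fibers to the pyramidal cells of CA3, which project to CA1, with the small field CA2 in between. Each field has its own principal neurons and its own set of expressed genes, which is why a handful of transcripts can report which fields a tissue sample contains. In bulk RNA, fewer cells of a subfield and less of a transcript per cell cannot be told apart.

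Promoter sequences are shown for the pair of genes that passed the test between genotypes, Amigo2 and Bok, and for the pair whose levels followed each other most closely from mouse to mouse, Prox1 and Dsp. Each line gives the 250 bases before the RefSeq transcription start on GRCm38.p6, read 5′ to 3′ on the gene's strand. Amigo2 is chr15:97247288-97247537 on the minus strand, Bok is chr1:93685325-93685574 on the plus strand, Prox1 is chr1:190170828-190171077 on the minus strand and Dsp is chr13:38151044-38151293 on the plus strand. Capitals mark matches on either strand to one of the motifs searched. The first is CAGATG, an E-box form bound by NeuroD proteins. The other is TATAAA, a core promoter element. The matches do not overlap.
Amigo2: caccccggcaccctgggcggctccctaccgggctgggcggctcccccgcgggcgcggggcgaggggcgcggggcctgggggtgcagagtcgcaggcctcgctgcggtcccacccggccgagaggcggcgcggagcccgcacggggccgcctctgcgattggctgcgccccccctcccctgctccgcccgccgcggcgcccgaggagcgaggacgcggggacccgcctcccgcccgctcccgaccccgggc
Bok: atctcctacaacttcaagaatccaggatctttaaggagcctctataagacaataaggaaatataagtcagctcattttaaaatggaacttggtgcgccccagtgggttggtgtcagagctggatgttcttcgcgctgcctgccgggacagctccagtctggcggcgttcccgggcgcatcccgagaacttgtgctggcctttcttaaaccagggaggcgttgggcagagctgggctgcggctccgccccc
Prox1: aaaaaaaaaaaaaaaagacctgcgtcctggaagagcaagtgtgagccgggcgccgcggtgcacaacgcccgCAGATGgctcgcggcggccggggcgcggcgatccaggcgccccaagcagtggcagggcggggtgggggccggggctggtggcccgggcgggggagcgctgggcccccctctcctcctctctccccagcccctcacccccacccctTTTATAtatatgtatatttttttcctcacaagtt
Dsp: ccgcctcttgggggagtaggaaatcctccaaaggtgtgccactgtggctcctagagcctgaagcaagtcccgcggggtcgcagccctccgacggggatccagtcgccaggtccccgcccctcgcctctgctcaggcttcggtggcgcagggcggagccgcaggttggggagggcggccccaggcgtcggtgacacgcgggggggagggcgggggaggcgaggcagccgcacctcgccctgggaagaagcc

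Prox1 held 1 match to each motif, and no match to these letters lay in the windows of Amigo2, Bok and Dsp. Of 27025 mouse promoters of the same length, 14.5% held CAGATG and 13.0% held TATAAA. RefSeq promoter entries were found for 9 of the 10 markers, Rgs14 being the exception. Among those 9, CAGATG lay before Prox1 and Wfs1, and TATAAA before Prox1 and Tdo2. The GC content of the 250 bases was 84.0% for Amigo2, 72.4% for Dsp, 64.8% for Prox1 and 55.2% for Bok, against a median of 52.0% over all promoters.

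All 10 genes are protein coding. On GRCm38, Amigo2 occupies chromosome 15, bases 97244125 to 97247287, and Bok chromosome 1, bases 93685660 to 93695764. These spans are from GENCODE, whose gene start lies 85 bases from the RefSeq start used above for Bok and 113 bases for Prox1. For Amigo2 and Dsp the starts coincide. Amigo2 consists of a single annotated stretch of exon, 58 bases of which are shared with Pced1b on the opposite strand. Pced1b averaged 6.34 CPM (counts scaled to library size) and had a log2 fold change of -0.27 (adjusted p = 0.286, edgeR quasi-likelihood test) in hAPOE4 against hAPOE3 mice, a sign opposite to that of Amigo2. Prox1 shares 133 exon bases with its antisense gene Prox1os, and Dsp 499 with Gm10129. How the library treats strand is not given in the sources used here, so reads from these shared bases cannot be assigned to a strand.

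Total counts ran from 35778879 to 52520279 per mouse, and every marker was detected in every mouse. To set genes side by side, CPM was divided by the kilobases of merged exons of all annotated transcripts. The lengths of the transcripts expressed were not used. Whether the deposited counts were already scaled for length is not given, so the order of genes is approximate. On this scale Mpped1 was highest with 38.3 ± 8.14 (SD, n = 20), followed by Wfs1 with 27.8 ± 4.61 and C1ql2 with 27.2 ± 8.63. Fibcd1 stood at 22.2 ± 6.39, Bok at 21.1 ± 5.92, Rgs14 at 13.8 ± 2.71 and Prox1 at 11.03 ± 3.10. Amigo2 (5.47 ± 1.495), Dsp (4.09 ± 1.57) and Tdo2 (1.38 ± 0.544) were the lowest. Wfs1 and C1ql2 are neighbors in this order that did not separate, with Wfs1 above C1ql2 in 10 of 20 mice. Mpped1 exceeded Wfs1 in 19 of 20 mice, and Dsp exceeded Tdo2 in 20 of 20.

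The libraries of 3 mice stood apart. The score of a gene list is the mean over its genes of log2 CPM, each gene centered on its mean over the 20 mice. For 6 thalamus genes (Prkcd, Tnnt1, Lef1, Tcf7l2, Rgs16 and Ntng1) this score was 2.41 in hAPOE4 male S178, 2.30 in hAPOE3 male S158 and 2.04 in hAPOE4 male S176, and at most -0.19 in the other 17 mice. The summed CPM of these genes was 483, 489 and 380 in the 3 mice and ran from 80.4 to 122 in the rest. Prkcd was not at 0 in any mouse, and Tnnt1 stayed between 0.542 and 1.10 CPM in the females but reached 41.6 in hAPOE4 males. S158 also had the highest striatum score (2.81) and S158 and S176 the highest oligodendrocyte scores (1.14 and 0.80). Leaving out these 3 mice was chosen after seeing the data, as was a fit with the thalamus score as a covariate. Beyond the use of thalamus and choroid plexus scores as covariates, the part of the other tissues in the marker levels was not tested.

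**Figure D1:**
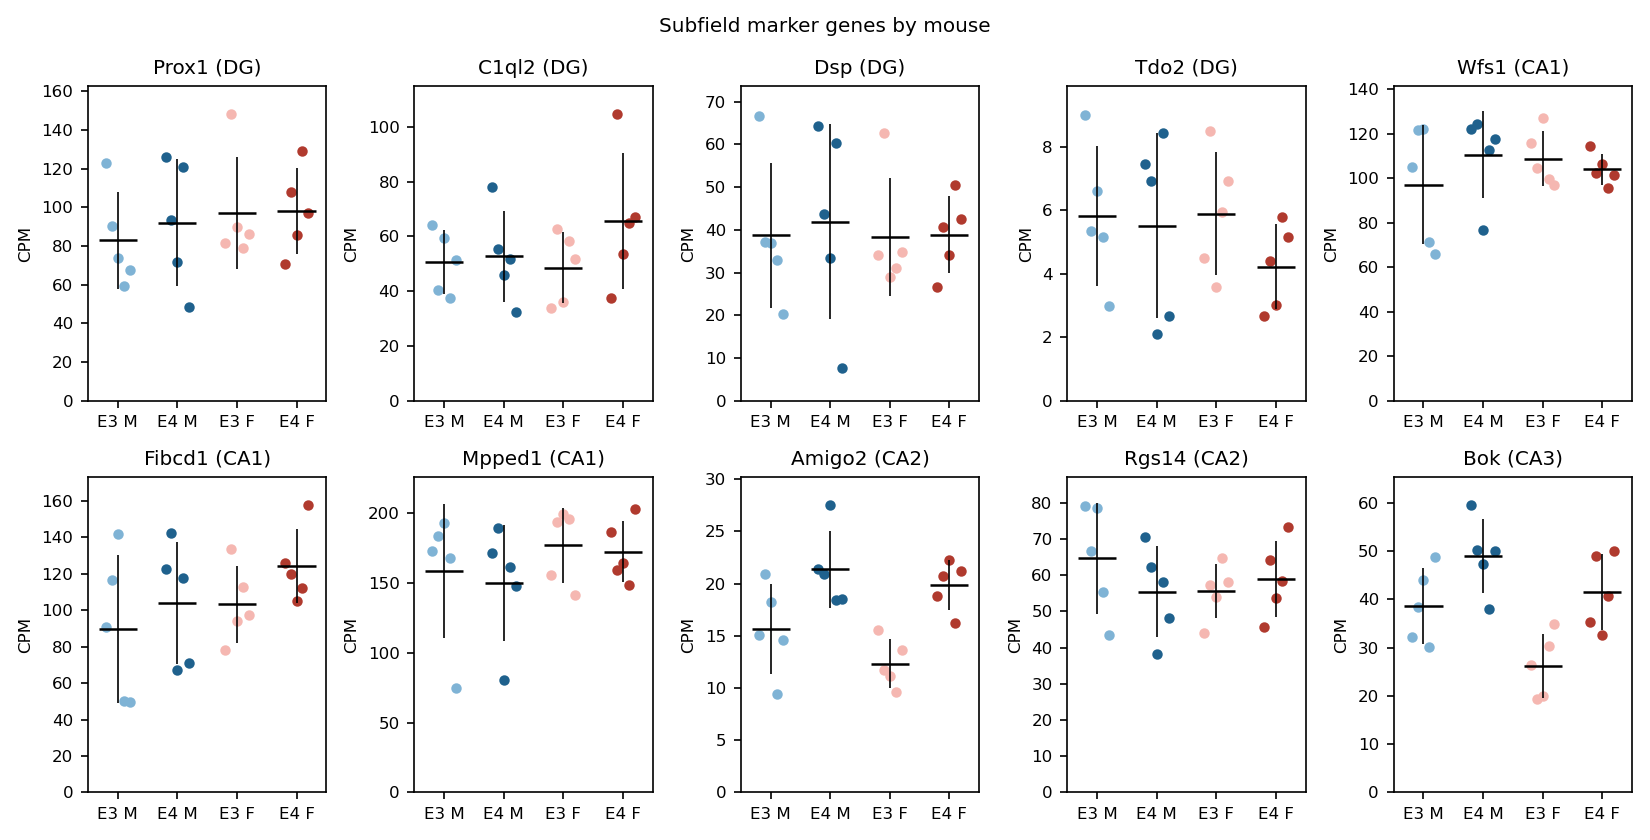
CPM of the 10 subfield markers in each mouse (points), with the group mean (horizontal bar) and SD (vertical bar), n = 5 mice per group; E3 and E4 are hAPOE3 and hAPOE4, M and F male and female, DG dentate gyrus. Amigo2 and Bok sit higher in both hAPOE4 groups than in the hAPOE3 group of the same sex, and the low Dsp point of 7.77 CPM is hAPOE4 male S178.

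Averaged over both sexes, Amigo2 and Bok were higher in hAPOE4 than in hAPOE3 mice, and none of the markers of dentate gyrus or CA1 passed the test. Thus 2 of 10 markers passed at an adjusted p of 0.05, both higher, where 2.45% of all genes tested passed and 0.704% passed in that direction. At an unadjusted p under 0.05 (edgeR) the same 2 of 10 passed, beside 17.9% of all genes. The mice are the same as in the comparisons within each sex. Rgs14, the other CA2 marker, did not pass. The difference between Amigo2 and Rgs14 was not tested.

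Amigo2 encodes a leucine-rich repeat adhesion protein that lines pyramidal cells of CA2 and is widely used to locate that field. In hAPOE3 males it measured 15.1, 20.9, 18.2, 9.46 and 14.6 CPM, and in hAPOE4 males 21.4, 20.9, 27.5, 18.4 and 18.5 CPM. The male groups overlapped, with the hAPOE4 values toward the upper end.

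In hAPOE3 females Amigo2 measured 15.6, 11.7, 11.1, 9.63 and 13.6 CPM, and in hAPOE4 females 18.8, 20.7, 22.3, 16.2 and 21.2 CPM. Here the groups did not overlap, with hAPOE4 higher, as was the case for 0.985% of all genes tested. The log2 fold change of hAPOE4 over hAPOE3 averaged over the sexes was 0.57 (SE 0.12, 95% interval 0.31 to 0.82, adjusted p = 0.0155, edgeR quasi-likelihood test with Benjamini-Hochberg adjustment), from a mean of 14.0 to 20.6 CPM. Within females alone it was 0.69 (SE 0.17, adjusted p = 0.0778) and within males 0.45 (SE 0.17, adjusted p = 0.426), neither past the threshold, although females passed with DESeq2 (adjusted p = 0.0153). The difference between the sexes in this fold change was 0.24 (SE 0.24, adjusted p = 1.00).

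Without mice S158, S176 and S178, the fold change of Amigo2 averaged over sexes was 0.51 with an adjusted p of 0.0657, and S176 held its highest value. Amigo2 also missed the threshold (0.49, adjusted p = 0.0676) once a score of 12 nuclear oxidative phosphorylation genes entered as a covariate. Those 12 genes were all lower on average in hAPOE4 mice, with a median log2 fold change of -0.24 against 0.0016 over all genes. None of the 12 passed the test. The hAPOE3 mice were split in this score. It was 0.35 to 0.54 in S147, S148, S156, S157 and S158. In the other hAPOE3 mice it was -0.32 to -0.11, and in hAPOE4 mice -0.31 to 0.07. The part of this score in the Amigo2 result was not tested beyond its use as a covariate.

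Bok encodes a member of the BCL-2 family and is concentrated in CA3. In hAPOE3 males it measured 32.1, 38.4, 43.9, 30.2 and 48.7 CPM, and in hAPOE4 males 59.5, 50.3, 47.3, 38.0 and 50.004 CPM. The male groups overlapped.

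In hAPOE3 females Bok measured 26.5, 19.4, 19.99, 30.4 and 34.9 CPM, and in hAPOE4 females 35.4, 49.0, 32.7, 40.7 and 49.98 CPM. Only hAPOE4 female S166, at 32.7 CPM, fell below the highest hAPOE3 female. Averaged over the sexes, Bok had a log2 fold change of 0.50 (SE 0.12, 95% interval 0.25 to 0.76, adjusted p = 0.0326, edgeR quasi-likelihood test), from a mean of 32.4 to 45.3 CPM. It was 0.66 (SE 0.17, adjusted p = 0.0944) in females and 0.34 (SE 0.17, adjusted p = 0.559) in males, and the difference between these was 0.32 (SE 0.24, adjusted p = 1.00). DESeq2 passed Bok within females as well (adjusted p = 0.0165).

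Without S158, S176 and S178 Bok remained past the threshold by a narrow margin (0.55, adjusted p = 0.0496). Over all 20 mice it was 0.49 (adjusted p = 0.0304, edgeR) with the thalamus score as a covariate. With the choroid plexus score as the covariate it was 0.50 (adjusted p = 0.0317, edgeR). With the nuclear oxidative phosphorylation score as a covariate, Bok was 0.62 (adjusted p = 0.0115, edgeR), and 0.74 (adjusted p = 0.0279) within females. Leaving out 1 mouse at a time, Bok passed in 13 of 20 fits and Amigo2 in 20 of 20. The call for Bok was lost without hAPOE3 females S145 or S146, hAPOE3 males S154 or S157, hAPOE4 females S165 or S168, or hAPOE4 male S174, with the highest adjusted p of 0.0729 without S165.

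The other genes of CA2 and CA3 did not pass the test between genotypes. Rgs14, which limits synaptic plasticity in CA2 by acting on G protein signaling, measured 79.1, 66.8, 78.4, 55.3 and 43.4 CPM in hAPOE3 males and 70.5, 62.3, 38.1, 58.2 and 48.1 CPM in hAPOE4 males. In hAPOE3 females it measured 44.1, 57.1, 54.0, 64.7 and 58.2 CPM and in hAPOE4 females 45.6, 64.1, 53.7, 58.3 and 73.2 CPM. Its groups overlapped throughout, and its log2 fold change averaged over sexes was -0.07 (SE 0.12, 95% interval -0.32 to 0.19, adjusted p = 0.810, edgeR). Of 5 further CA2 genes (Ccdc3, Map3k15, Cacng5, Necab2 and Pcp4), 0 passed the test, 3 had positive and 2 negative fold changes, and the median was 0.01. Pcp4, a regulator of calmodulin, had the largest with -0.27 (adjusted p = 0.648). Without S158, S176 and S178 it was -0.24 (adjusted p = 0.448, edgeR). The summed CPM of these 5 genes was highest in S158 (514), S178 (372) and S176 (281), the mice with high thalamus scores. The part of other tissues in this list was not tested. Of 6 further CA3 genes (Iyd, Grik4, Nectin3, Homer3, Socs2 and Cpne4), 0 passed, with 4 positive and 2 negative and a median of 0.08. Iyd, an iodotyrosine deiodinase, had the largest fold change of these with -0.16 (adjusted p = 0.534). None of these 11 genes reached an unadjusted p of 0.05 in that comparison, which 17.9% of all genes did.

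**Figure D2:**
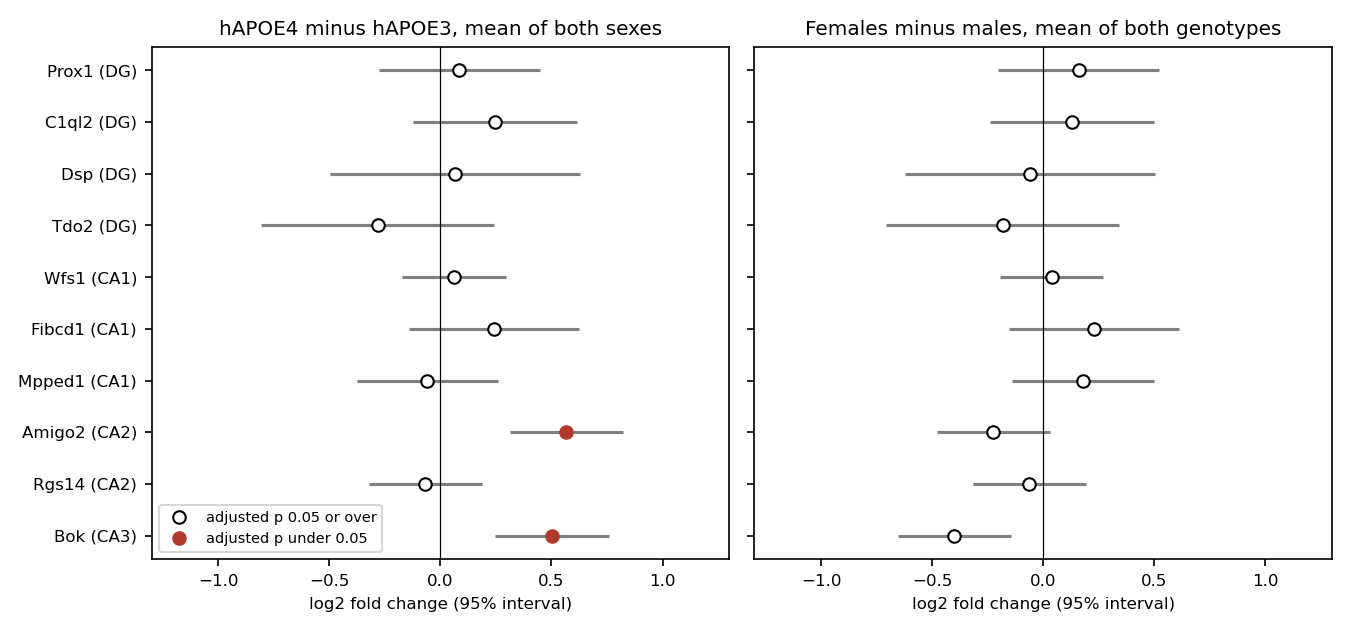
Log2 fold change (points) with its 95% interval (lines) for each marker, hAPOE4 minus hAPOE3 averaged over the sexes (left) and females minus males averaged over the genotypes (right); filled points have an adjusted p under 0.05 in the edgeR test. Amigo2 at 0.57 and Bok at 0.50 are the filled points, and none is filled for sex.

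The dentate gyrus markers did not pass in any comparison, and the groups overlapped for each of them. Prox1 is the homeobox factor that granule cells need to keep their identity. Its CPM ran from 59.4 to 123 in hAPOE3 males, 48.5 to 126 in hAPOE4 males, 79.0 to 148.5 in hAPOE3 females and 70.9 to 129 in hAPOE4 females. The log2 fold change for hAPOE4 over hAPOE3 averaged over sexes was 0.08 (SE 0.17, 95% interval -0.28 to 0.45, adjusted p = 0.837, edgeR).

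Dsp encodes desmoplakin, a linker of cell junctions to intermediate filaments that in the hippocampus marks granule cells. It measured 66.6, 37.2, 36.9, 32.9 and 20.3 CPM in hAPOE3 males and 64.4, 43.7, 33.3, 60.3 and 7.77 CPM in hAPOE4 males. In hAPOE3 females the values were 34.2, 62.7, 29.1, 31.1 and 34.9 CPM, and in hAPOE4 females 26.6, 40.6, 34.1, 50.5 and 42.7 CPM. The highest mouse (S154) was 8.56 times the lowest (S178), and both were males. Group means lay between 38.4 and 41.9 CPM, and the fold change averaged over sexes was 0.07 (SE 0.27, 95% interval -0.50 to 0.63, adjusted p = 0.925, edgeR).

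C1ql2 is a secreted C1q-like protein that organizes synapses of the mossy fibers. It ran from 37.4 to 64.2 CPM in hAPOE3 males, 32.6 to 77.9 in hAPOE4 males, 33.9 to 62.6 in hAPOE3 females and 37.7 to 105 in hAPOE4 females. Its log2 fold change averaged over sexes was 0.25 (SE 0.18, adjusted p = 0.487, edgeR). It was 0.44 (SE 0.25, adjusted p = 0.599) in females, where S165 held its highest value, and 0.06 (SE 0.25, adjusted p = 0.950) in males. Tdo2, the tryptophan dioxygenase that opens the kynurenine pathway, had a log2 fold change averaged over sexes of -0.28 (SE 0.25, adjusted p = 0.589, edgeR). It ran from 3.60 to 8.48 CPM in hAPOE3 females and from 2.69 to 5.79 in hAPOE4 females, a log2 fold change of -0.49 (SE 0.36, adjusted p = 0.717, edgeR). In males it ran from 2.99 to 8.998 CPM with hAPOE3 and 2.11 to 8.44 with hAPOE4, a log2 fold change of -0.08 (SE 0.36, adjusted p = 0.955, edgeR). Of 7 further dentate gyrus genes (Stxbp6, Lct, Trpc6, Plk5, Glis3, Dock10 and Sema5a), 0 passed in the mean of both sexes, with 5 positive and 2 negative and a median of 0.15. Trpc6, a cation channel, had the largest fold change with 0.22 (adjusted p = 0.471).

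The CA1 markers showed the same picture, with overlapping groups and low values in a few males. Wfs1, which encodes the endoplasmic reticulum protein wolframin, measured 105, 121, 122, 71.5 and 66.1 CPM in hAPOE3 males and 122, 124, 76.5, 113 and 117 in hAPOE4 males. In females it ran from 96.8 to 127 CPM with hAPOE3 and from 95.5 to 115 with hAPOE4. The low values of 66.1, 71.5 and 76.5 CPM were those of S158, S157 and S176.

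Fibcd1, a membrane receptor with a fibrinogen-like domain, measured 90.7, 117, 142, 50.4 and 49.5 CPM in hAPOE3 males and 122, 143, 67.0, 117 and 71.0 in hAPOE4 males. Its female groups ran from 78.1 to 134 and from 105 to 157.6 CPM. Mpped1, a metallophosphoesterase domain protein, measured 173, 184, 193, 168.03 and 74.9 CPM in hAPOE3 males and 172, 189, 80.3, 162 and 147.6 in hAPOE4 males. In females Mpped1 ran from 141 to 199 and from 149 to 203 CPM. Again S158 and S176 were low for both genes, and S157 and S178 for Fibcd1. Averaged over sexes, the log2 fold changes were 0.06 (SE 0.11) for Wfs1, 0.24 (SE 0.18) for Fibcd1 and -0.06 (SE 0.15) for Mpped1, with adjusted p-values of 0.811, 0.520 and 0.876 in edgeR. Of 5 further CA1 genes (Pou3f1, Spink8, Ccn3, listed as Nov, Man1a and Lefty1), 0 passed, with 1 positive and 4 negative and a median of -0.16. Spink8, a protease inhibitor, had the largest fold change with -0.23 (adjusted p = 0.639).

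Females and males did not differ in any marker at the threshold. Averaged over the genotypes, 0 of 10 markers passed where 0.129% of all genes did, 1 of 10 (Bok) had an unadjusted p under 0.05 where 10% of genes did, and DESeq2 also passed 0. Bok was lower in females by a log2 fold change of -0.40 (SE 0.12, adjusted p = 0.276, edgeR), and -0.56 (SE 0.17, adjusted p = 0.805) among hAPOE3 mice. Amigo2 followed with -0.22 (SE 0.12, adjusted p = 0.560). The other fold changes were 0.16 for Prox1, 0.13 for C1ql2, -0.06 for Dsp, -0.18 for Tdo2, 0.04 for Wfs1, 0.23 for Fibcd1, 0.18 for Mpped1 and -0.06 for Rgs14. Without S158, S176 and S178 the count by sex stayed at 0, with -0.35 (adjusted p = 0.380) for Bok and -0.49 (adjusted p = 0.340) for Tdo2 among the values. The numbers of markers passing within hAPOE3 mice, within hAPOE4 mice and for the interaction of sex and APOE were 0, 0 and 0 in edgeR and in DESeq2, beside 0.0414%, 0.437% and 0.184% of all genes in edgeR. At an unadjusted p under 0.05 the numbers were 1, 0 and 0, beside 5.22%, 5.8% and 2.54% of all genes. Within males the count for genotype was also 0 (0.621% of all genes) with both tools, with 1 marker under an unadjusted p of 0.05 (9.06% of all genes), and within females 0 in edgeR (0.667% of all genes) with 2 such markers (10.1% of all genes).

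By sex, the lists with the largest median shifts were those of 3 tissues around the hippocampus. The thalamus genes were lower in females in 6 of 6 cases, with a median log2 fold change of -1.34 against -0.0046 over all genes, and the choroid plexus genes were higher in 8 of 8 cases with a median of 1.497. The striatum genes were lower in 7 of 7, with a median of -0.62. The number past the threshold in each was 0. The thalamus and striatum shifts rested on the 3 males named above. Without them the thalamus median was 0.10 (4 of 6 higher in females) and the striatum median 0.33 (7 of 7 higher), and without S158 alone the striatum median was -0.06 (4 of 7 lower). The thalamus scores of the other 7 males, -0.54 to -0.27, lay within the female range of -0.63 to -0.19. The choroid plexus median was 2.87 without the 3 males (8 of 8 higher). The summed choroid plexus CPM ran from 87.5 to 3309 in hAPOE3 males, 122 to 2900 in hAPOE4 males, 87.0 to 3871 in hAPOE3 females and 107 to 6503 in hAPOE4 females. The oligodendrocyte genes were also lower in females (6 of 6, median -0.38, 0 past the threshold), and without the 3 males the median was -0.06 (5 of 6 lower). Further CA2 genes were lower in females in 5 of 5 cases with a median of -0.17, led by Pcp4 with -0.74 (adjusted p = 0.358). Without the 3 males these values were -0.07 for the median and -0.10 (adjusted p = 0.957) for Pcp4. The part of these lists in the subfield marker values was not tested beyond the use of the thalamus and choroid plexus scores as covariates.

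To judge the balance of the fields within each mouse, the CA1 score was subtracted from the dentate gyrus score. Among males it averaged 0.15 ± 0.40 (SD, n = 5) with hAPOE3 and -0.03 ± 0.59 with hAPOE4, and among females -0.03 ± 0.35 with hAPOE3 and -0.09 ± 0.46 with hAPOE4. The ranges overlapped, from -0.26 to 0.63, -1.02 to 0.42, -0.49 to 0.41 and -0.76 to 0.41. The hAPOE4 minus hAPOE3 difference averaged over sexes was -0.12 and the female minus male difference -0.13. The pooled SD of single mice within groups was 0.458, which does not measure the error of a difference between means. The sign of the genotype difference was not stable, since it became 0.04 without S158, S176 and S178 and 0.19 with the further dentate gyrus and CA1 genes in place of the markers. No p is given for these scores.

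**Figure D3:**
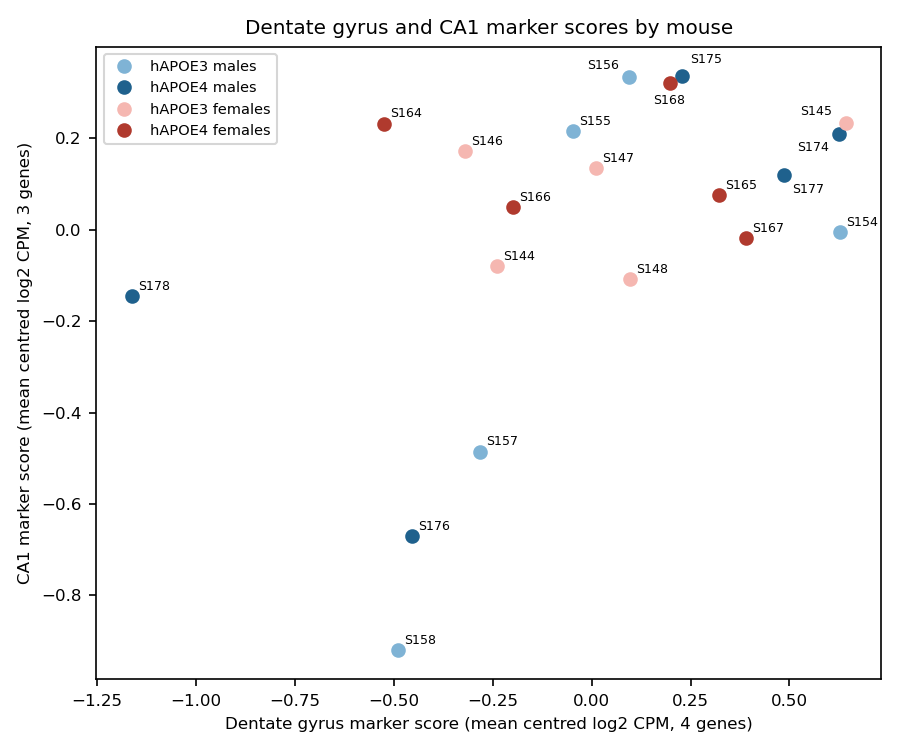
Dentate gyrus marker score (mean of 4 genes, centered log2 CPM) against CA1 marker score (mean of 3 genes) for each of 20 mice, colored by group and labeled by mouse. S178 is alone at the left with -1.16 on the dentate gyrus axis, and S158, S176 and S157 lie lowest on the CA1 axis with -0.92, -0.67 and -0.49.

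Mice of the same group were spread widely along these scores. In S178 the dentate gyrus score was -1.16 while its CA1 score was -0.15. With the further dentate gyrus and CA1 genes in place of the markers, its scores were -0.72 and -0.71. In S158 and S176 both marker scores were low, with -0.49 and -0.45 for dentate gyrus and -0.92 and -0.67 for CA1. S157 had a CA1 score of -0.49 and a thalamus score of -0.46. The highest dentate gyrus scores were 0.64 in hAPOE3 female S145, 0.63 in hAPOE3 male S154 and 0.62 in hAPOE4 male S174, which come from 3 different groups. The SD of log2 CPM within groups was 0.75 for Dsp, 0.64 for Tdo2, 0.46 for Fibcd1, 0.44 for C1ql2, 0.43 for Prox1 and 0.40 for Mpped1. It was 0.30 for Rgs14 and Bok, 0.29 for Amigo2 and 0.27 for Wfs1, beside a median of 0.28 over all genes tested. Of the 500 genes nearest in level to each marker, from 79.4% (Amigo2) to 99.4% (Dsp) had a smaller SD.

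**Figure D4:**
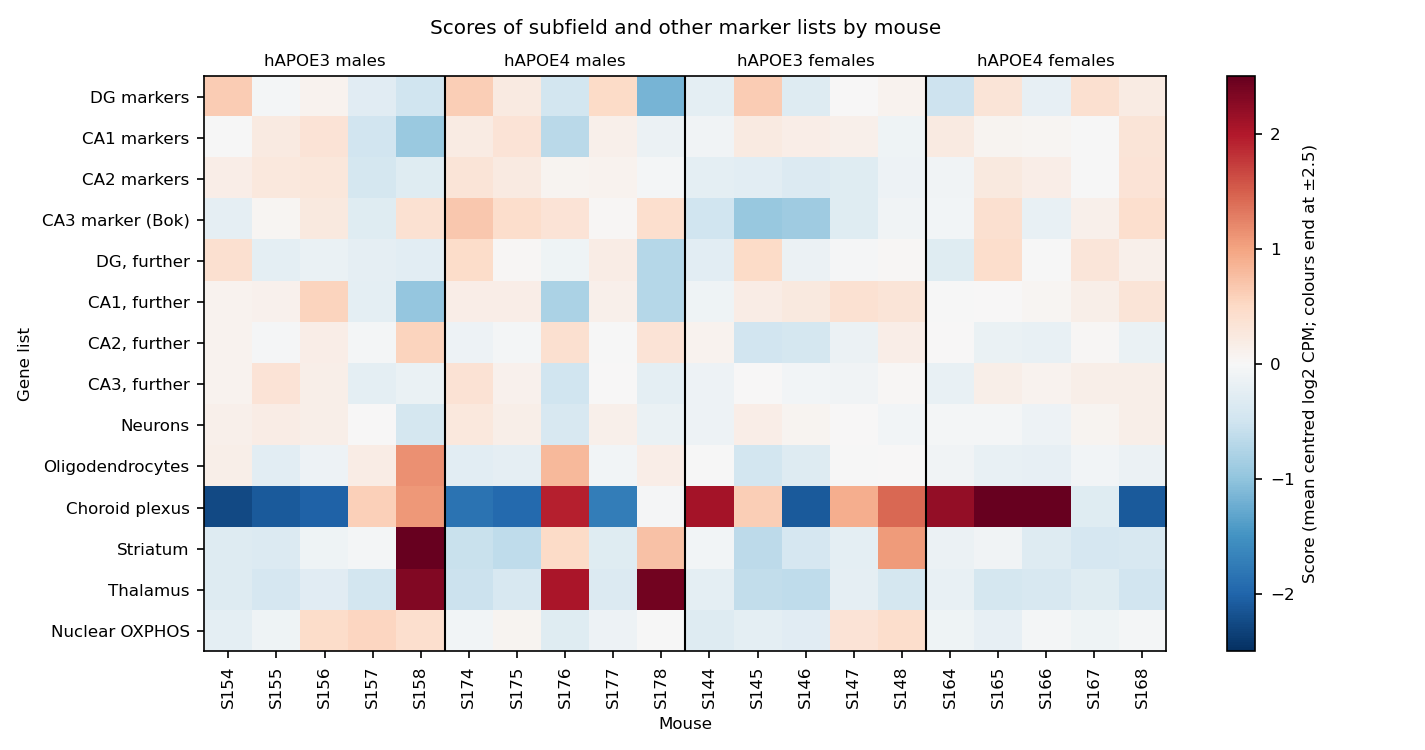
Scores of the subfield markers, further subfield genes and other marker lists (rows; mean centered log2 CPM, color scale ending at ±2.5) in the 20 mice (columns), grouped by genotype and sex. The thalamus row is high in S158, S176 and S178, and the choroid plexus row varies between mice in every group.

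Dentate gyrus markers deviated together from mouse to mouse, and so did most CA1 markers. With group means subtracted, log2 CPM was correlated over the 20 mice for each of the 45 pairs of markers, by a two-sided permutation test within groups of 100000 resamples, with Benjamini-Hochberg adjustment over the 45 pairs. The adjusted p was under 0.05 for 13 pairs. All 6 pairs of dentate gyrus markers were among them, with r from 0.62 to 0.89. Prox1 and Dsp, whose promoters are printed above, were the closest pair with Pearson r = 0.89 (permutation p = 2e-05, adjusted p = 0.0009) and Spearman rho = 0.88 (permutation p = 1e-05, the smallest these resamples can give, adjusted p = 0.000225). Without the 2 mice farthest from the median of Prox1, r was 0.87.

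Of the 3 pairs of CA1 markers, 2 passed. Fibcd1 and Mpped1 gave r = 0.72 (rho = 0.78, permutation p = 7e-05 and adjusted p = 0.00157 for r), and Wfs1 and Mpped1 gave r = 0.78 (rho = 0.75, permutation adjusted p = 0.0068). Without the 2 farthest mice these fell to 0.63 and 0.49. Of the 12 pairs of a dentate gyrus and a CA1 marker, 1 passed, Tdo2 with Fibcd1 (r = 0.68, rho = 0.67, permutation adjusted p = 0.016), and the median r of the 12 was 0.32.

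Without S158, S176 and S178, 6 of the 45 pairs passed, 4 of them among dentate gyrus markers, 1 among CA1 markers and 0 of 12 between these fields, for which the median r was then -0.06. Prox1 with C1ql2 (r = 0.59) and C1ql2 with Dsp (r = 0.63) were the dentate gyrus pairs that missed the threshold in those 17 mice. With a score of 8 neuron genes regressed out, the 6 dentate gyrus pairs passed and 0 of 3 CA1 pairs did. The median r of the 12 pairs between dentate gyrus and CA1 was then -0.42, and 2 of them passed with negative r, Prox1 with Mpped1 (r = -0.79, permutation adjusted p = 0.0027) and Dsp with Mpped1 (r = -0.64, permutation adjusted p = 0.0326). Regressing out a level that both fields share can by itself lower r between them, and its part in these values was not tested. The neuron score was lowest in S158 (-0.43) and S176 (-0.39).

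Of the CA2 markers, Rgs14 passed with 4 markers of other fields and Amigo2 with 0. Rgs14 deviated with Tdo2 (r = 0.82, rho = 0.78, permutation adjusted p = 0.0022), Fibcd1 (r = 0.80, rho = 0.78, permutation adjusted p = 0.0042), Mpped1 (r = 0.74, rho = 0.70, permutation adjusted p = 0.0153) and C1ql2 (r = 0.64, rho = 0.72, permutation adjusted p = 0.016). Of these 4, C1ql2 remained past the threshold without S158, S176 and S178 and with the neuron score regressed out, and the other 3 were lost under both. Without the 3 mice r was 0.63 for Tdo2, 0.62 for Fibcd1 and 0.29 for Mpped1 (permutation adjusted p = 0.107, 0.1004 and 0.608). Amigo2 and Rgs14 gave r = -0.02 (rho = 0.08, permutation adjusted p = 0.948). Amigo2 with Bok gave r = 0.29 (rho = 0.31, permutation adjusted p = 0.497), and passed with the nuclear oxidative phosphorylation score regressed out (r = 0.59, permutation adjusted p = 0.0387). Of the 14 pairs of Amigo2 or Bok with a dentate gyrus or CA1 marker, 0 passed, with r from -0.27 to 0.39.

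**Figure D5:**
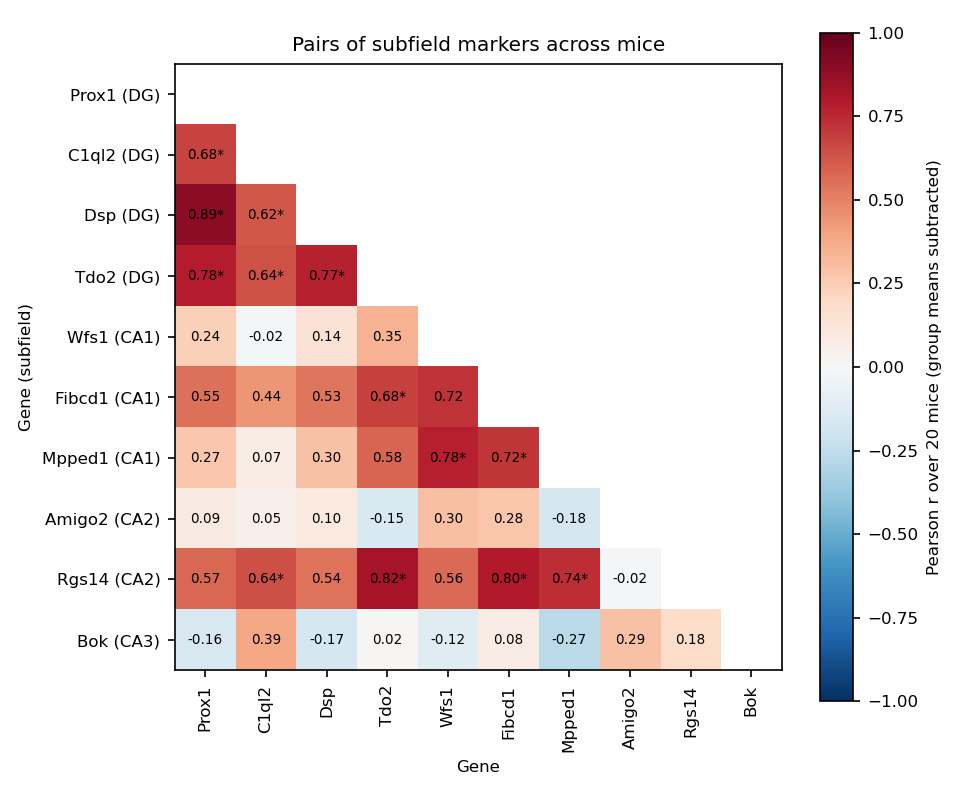
Pearson r of log2 CPM over 20 mice, group means subtracted, for the 45 pairs of markers; asterisks mark an adjusted permutation p under 0.05. The dentate gyrus block at the upper left runs from 0.62 to 0.89, while the Amigo2 and Bok rows hold no asterisk.

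Further genes were ranked by their likeness to the markers, as Pearson r over the 20 mice with group means subtracted and no test, among 16086 genes. Closest to the mean of the 4 dentate gyrus markers were Orai2 (0.93), a store-operated calcium channel subunit, Lct (0.93), lactase, and Anxa11 (0.92), an annexin. Lct is also on the list of further dentate gyrus genes, 6 of 7 of which had r between 0.80 and 0.93, Plk5 being the exception with 0.14. Closest to the mean of the 3 CA1 markers were Sept9 (0.96), a septin, Rspo2 (0.93), an activator of Wnt signaling, and Fam189a1 (0.93). The 5 further CA1 genes had r between 0.55 and 0.79 with the CA1 mean, and 4 of the 5 lay between 0.60 and 0.78 with the dentate gyrus mean as well. All these values share the same 20 libraries.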

How the data were processed

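PolyA-enriched hippocampal RNA of each of the 20 mice was sequenced as paired-end reads. The authors assigned reads to mouse cDNA of an Ensembl release with Salmon 0.91, summed the estimated counts per gene with tximport, and deposited these expected counts and a second table of normalized counts, a signal scaled by DESeq2. Mouse cDNA was the reference, so it held no entry for the human APOE gene. Where reads of that gene were assigned was not tested. The deposited counts were whole numbers and were used as they stand.

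Counts were analyzed in R 4.3.3 with edgeR 4.0.16: filterByExpr by group, TMM normalization, 1 mean per group over all 20 mice, the quasi-likelihood test and Benjamini-Hochberg adjustment over 21724 genes, at a threshold of 0.05. The study's own test was the DESeq2 Wald test, used here (version 1.42.0) as an alternative. limma 3.58.1 was run on log2(normalized count + 1). Scores used log2 CPM with a prior count of 2. No table column was left out. The edgeR and DESeq2 steps were tested on simulated data.

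The members and lists were chosen with earlier results of these data known. All 10 markers are named in every comparison that averages sexes or genotypes; of the other lists, genes past the threshold, otherwise the gene of largest absolute fold change in the list; and, for likeness, the 3 genes of highest r. The lists behind the scores are those named in the report and, beside them, ventral hippocampus, subiculum, immature granule neurons, interneurons, astrocytes, microglia, endothelium, ependyma and cortex. A gene of the further CA1 list is not reported here and was left out of that list's values. Mouse identity numbers serve as names. Alternatives covered tool, normalization, filter, samples, covariates and leaving out each mouse. Gene positions came from GENCODE M21 and promoters from RefSeq.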

Additional observations from a re-analysis of the deposited data

Results flagged for a closer look

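In groups of 5, a mouse was marked where its gap to the nearest mouse exceeded 0.71 of the group's range (Dixon's test). Of 56 group and measure combinations, 4 were marked, and chance marks about 1 in 20. In hAPOE3 females, S145 stood above the others for Prox1 with 148.5 CPM and for Dsp with 62.7 CPM, where the next highest were 89.7 and 34.9 CPM. In hAPOE4 males, S176 stood below the others for Wfs1 with 76.5 CPM, the next lowest being 113 CPM. In hAPOE3 males, S158 stood below the others for Mpped1 with 74.9 CPM, the next lowest being 168.03 CPM. S176 and S158 are among the 3 mice with high thalamus markers, and S145 is not.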

How the results depend on the processing

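No paired analysis was possible because the labels give each mouse an identity number and no number shared between groups. For genotype averaged over both sexes, the count of 2 markers became 1 (Bok) with the nuclear oxidative phosphorylation score as a covariate. It also became 1 (Bok) without S158, S176 and S178. Over all genes, 297 and 328 passed in these runs, where 532 did in the main fit. The count of markers ranged from 1 to 2 when 1 mouse was left out. Within females, the count of 0 for genotype became 2 with DESeq2, 1 with only the groups compared in the fit and 1 with that covariate, and ranged from 0 to 1 when 1 mouse was left out. The latter passes were Amigo2 without hAPOE3 female S144 (adjusted p = 0.0367) or hAPOE3 male S157 (0.0344). The counts of the other comparisons stayed at 0 in every alternative run. Over the alternatives of the averaged comparison, the adjusted p ran from 0.000899 to 0.0676 for Amigo2 and from 0.00383 to 0.0729 for Bok, in edgeR except for the lowest of each, which came from DESeq2, with no change of sign. Of 45 pairs, 6 passed without the 3 mice, where 13 had, and 9 to 18 passed under the other alternatives.

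Leaving out S158, S176 and S178 and the thalamus covariate were chosen after seeing the data. Of 1002 alternative values of the fold changes given, 32 turned sign, and over all 10 markers and 7 comparisons 125 of 2210 did, by values of at most 0.30 from 0 and with 0 past the threshold. By genotype, Dsp became -0.058 with the deposited normalized counts and -0.067 with the oxidative phosphorylation covariate, Prox1 -0.037 with that covariate and Mpped1 0.043 with the thalamus covariate; leaving out 1 mouse, Dsp ran from -0.039 to 0.21 and Mpped1 from -0.15 to 0.022. Within males Tdo2 became 0.21 without the 3 mice and 0.031 with the thalamus covariate; leaving out 1 mouse, Tdo2 ran from -0.28 to 0.13 and C1ql2 from -0.13 to 0.19. By sex, Dsp became 0.11 with the deposited normalized counts, and with the choroid plexus covariate Dsp became 0.26, Tdo2 0.27 and Rgs14 0.16. Wfs1 became -0.000168 with the oxidative phosphorylation covariate. Without the 3 mice, Prox1 became -0.018, Wfs1 -0.068 and Mpped1 -0.011, and with the thalamus covariate these were -0.032, -0.073 and -0.021; leaving out 1 mouse, Dsp ran from -0.19 to 0.082 and Wfs1 from -0.018 to 0.085. The correlation of Mpped1 with Rgs14 became -0.044 with the neuron score regressed out. The cause of these changes was not tested.

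The groups of 5 mice limit precision: over the markers that did not pass, the 95% interval of the averaged genotype fold change reached up to 0.63 (Dsp and Fibcd1) and down to -0.81 (Tdo2) on the log2 scale.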

Other observations

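Genes of the long axis and of cells beside the principal neurons gave further values. Of 5 genes enriched in ventral hippocampus (Trhr, Dcn, Htr2c, Coch and Gpc3), 5 had higher means in hAPOE4 mice averaged over sexes and 5 in females averaged over genotypes, with median log2 fold changes of 0.38 and 0.38 and 0 past the threshold in edgeR. Without S158, S176 and S178 the medians were 0.28 (4 of 5 higher) and 0.72 (5 of 5 higher). The mice with the 4 highest scores of this list, S164, S166, S144 and S165 (0.79, 0.67, 0.57 and 0.56), also had the 4 highest choroid plexus scores (2.20, 2.79, 2.09 and 2.75), and Htr2c is known to be abundant in choroid plexus. The part of choroid plexus in these values was not tested. Dcn, the proteoglycan decorin, had the largest of these, 0.52 (adjusted p = 0.195) for genotype and 0.69 (adjusted p = 0.264) for sex. The 3 subiculum genes (Fn1, Nts and Slc17a6) were led by Fn1, fibronectin, for genotype with 0.44 (adjusted p = 0.101) and by Slc17a6, a vesicular glutamate transporter, for sex with -0.95 (adjusted p = 0.316), which was -0.08 (adjusted p = 0.948) without the 3 mice. Of 6 genes of immature granule neurons, 6 were lower in hAPOE4 mice with a median of -0.08 and 0 past the threshold, led by Sox11 with -0.18 (adjusted p = 0.156).

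For genotype, 0 genes of each remaining list passed in edgeR. The medians were -0.005 for neurons, -0.004 for interneurons, 0.12 for astrocytes, 0.04 for microglia, 0.25 for endothelium, 0.06 for ependyma, -0.02 for cortex, -0.11 for oligodendrocytes, 0.58 for choroid plexus, 0.29 for thalamus and -0.65 for striatum, beside 0.0016 over all genes tested. Single males moved the last 3: the striatum median was 0.07 without S158, the choroid plexus median -0.06 without S176, and the thalamus median 0.76 without S158 and 0.06 without S178. By sex they were -0.01 for neurons, -0.05 for interneurons, 0.08 for astrocytes, 0.01 for microglia, 0.09 for endothelium, -0.04 for ependyma and -0.04 for cortex.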
